A study of Arabidopsis thaliana with 12 samples.

Results

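CRR41, PIFI, LPA19 and FZL are nuclear genes of Arabidopsis thaliana whose proteins help to build or shape the photosynthetic membrane of the chloroplast. They were chosen by name, with earlier light against dark results of these same columns already known, so their light minus dark differences are given as a description without a test. Each was taken where a probe of the deposited table was annotated with exactly 1 gene and that gene was one of the 4. Every one of the 4 had 1 such probe, among 692 probes naming exactly 1 gene and 3439 probes in all. The 4 symbols occurred on 0 further probes. Probes naming several genes were not searched for other names of the 4. The loci are AT1G51100 (CRR41), AT3G15840 (PIFI), AT1G05385 (LPA19) and AT1G03160 (FZL). RefSeq lists 1 transcript for CRR41, 5 for PIFI, 2 for LPA19 and 4 for FZL, and a value here cannot be assigned to one of several transcripts.

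The samples were total RNA of wild-type plants of the Landsberg ecotype hybridised to an expression array, which gave 12 columns. The first group, called light here, is 6 columns from plants treated with 50 µM paraquat and brought back into light for 30 min after a 12 h dark period. The second, called dark, is 6 columns from plants given the same dose and held for 12 h in darkness. All 12 columns carry paraquat, a herbicide that draws electrons from photosystem I and hands them to oxygen, and no untreated column was analysed here, so the herbicide itself was not compared. Light and any later time of sampling cannot be told apart.

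The thylakoid membrane holds the photosystems, which are put together stepwise by proteins that are not part of the finished complex. A further complex of the membrane, the NADH dehydrogenase-like complex (NDH), feeds electrons back into the plastoquinone pool in cyclic flow around photosystem I and in the dark. CRR41 is a stromal assembly factor of an NDH subcomplex, and PIFI is a stromal protein needed for NDH activity, which was named after the rise in chlorophyll fluorescence that NDH causes when light is switched off. LPA19 is a lumenal relative of PSB27 that helps process the precursor of the photosystem II core protein D1. FZL is a dynamin-type GTPase related to the membrane fusion protein FZO and acts in thylakoid organisation and chloroplast shape.

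The values are linear intensities as deposited, with a shared ceiling of 100, column totals between 3466 and 3664 and 129 to 148 exact zeros per column. Neither the meaning of a zero nor the steps that made the values could be taken from the sources used here. Fold differences are on a quantile-normalised log2 scale, and levels of different probes were not compared, because brightness also depends on the probe. Markers were looked up only among probes naming exactly 1 gene. There 3 of 13 leaf markers were found (PSAN, LHB1B2 and PSBW) and 0 root, guard cell or seed markers. The 3 had a summed intensity of 37.1 to 47.1 in light and 30.0 to 39.0 in dark and 0 zeros. These sums are as deposited, a scale on which the 10 probes with means of 6.65 to 9.33 had a median light minus dark of log2 0.21, against 0.01 after normalisation. That range was set by another gene, NdhS, and not by the markers, and the sums were not taken after normalisation. A difference in the sums was not tested. In whole-plant RNA, fewer cells of a type and less RNA per cell cannot be told apart. The labels do not say that columns came from separate plants, so the spread between columns may be technical.

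FZL, the dynamin-type GTPase, came closest of the 4 genes to a separation of the groups, with light on the higher side. Its intensity in light ran from 1.78 over a median of 2.02 to 2.35, against 1.39, 1.58 and 1.88 in dark, and averaged 2.07 ± 0.224 in light and 1.61 ± 0.199 in dark (SD, n = 6 each). The groups overlapped at 1 light column: 5 of 6 light columns lay above the highest dark column, and light column 5, the lowest of light, did not. The mean difference was log2 0.36 (1.28-fold, SD of the 6 same-numbered differences 0.151), and it was above 0 in 6 of 6 numbers. It was 0.08 in number 5, and 0.31 to 0.48 in the other numbers.

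LPA19, the processing factor for D1, had a mean of 0.478 ± 0.0668 in light and 0.418 ± 0.0656 in dark (SD, n = 6 each), a gap smaller than either SD. Its intensity in light had a lowest value of 0.395, a median of 0.480 and a highest value of 0.582, against 0.315, 0.432 and 0.491 in dark. The groups overlapped widely, with 2 light columns above all dark columns. Within numbers the light column was the higher in 6 of 6, with a mean of log2 0.22 (1.16-fold, SD 0.197). The difference was uneven over the numbers: 0.35 in number 1, 0.54 in number 2, 0.11 in number 3, 0.24 in number 4, 0.03 in number 5 and 0.05 in number 6.

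CRR41, the NDH assembly factor, ran the other way by a small amount. Its intensity in light spanned 0.858 to 0.996 with a median of 0.960, against 0.917 to 1.18 with a median of 1.08 in dark. Means were 0.952 ± 0.0502 in light and 1.08 ± 0.0981 in dark (SD, n = 6 each), and 1 light column lay below all dark columns. The mean difference was log2 -0.13 (SD 0.132), a ratio of 0.912, and light was the lower side in 5 of 6 numbers. Number 5 was the exception, at 0.04, and number 1 was close to none, at -0.01.

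The PIFI probe was dim, with a mean intensity of 0.148, under the lower quartile of all probes (0.330), and it was listed at 0 in dark column 1. The 6 light columns held 0.0820 to 0.232 with a median of 0.162, against 0.150 to 0.202 with a median of 0.166 in the 5 other dark columns. The light columns of numbers 1 and 2, at 0.0941 and 0.0820, lay below every measured dark column, light column 5 lay above them, and the rest fell among them. Over the 5 numbers measured on both sides the mean difference was log2 -0.14 (SD 0.541), with 3 numbers lower and 2 higher in light, so no direction held against the spread. As deposited, those counts were 2 lower and 3 higher. Keeping the zero with the small offset of 2.53e-05 gave log2 1.87 in place of -0.14, a value set by that single zero.

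**Figure D1:**
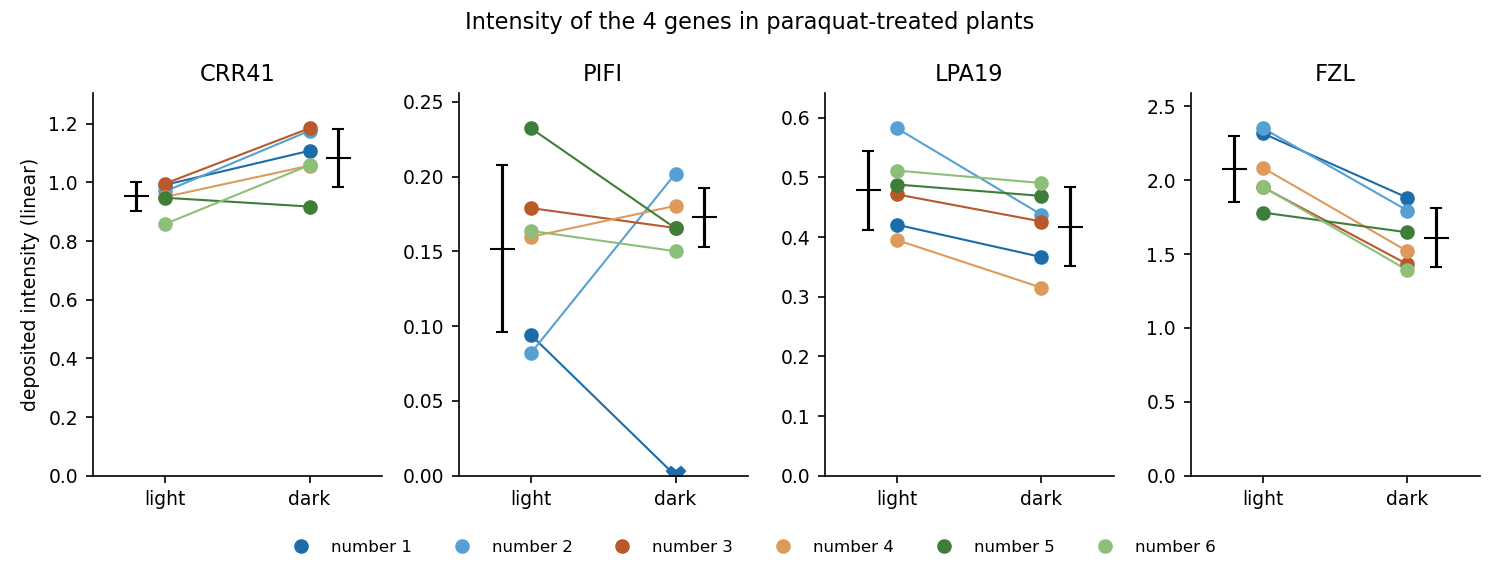
Deposited linear intensity (y axes from 0, a scale for each gene) of CRR41, PIFI, LPA19 and FZL in light and dark. Points are columns, lines join columns of the same replicate number, black marks are mean ± SD over measured columns (n = 6, and 5 for PIFI in dark), and the cross is the PIFI value listed at 0. FZL lines all fall towards dark, and 5 of 6 light columns lie above the highest dark column.

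Read as pairs of columns, the 4 genes differed in how steady their difference was. The SD of the same-numbered differences was 0.132 for CRR41, 0.151 for FZL and 0.197 for LPA19, each below the median of 0.206 over the 2554 probes above the lower quartile without zeros. PIFI, whose measured differences ran from -1.0 in number 2 to 0.43 in number 5, had an SD of 0.541 over 5 numbers. Its probe is dimmer than those 2554, and the 624 probes at or below the lower quartile without zeros had a median SD of 0.502 (quartiles 0.365 and 0.750). By consecutive numbers 1 and 2, 3 and 4, and 5 and 6, FZL had log2 differences of 0.35, 0.45 and 0.28. LPA19 had 0.44, 0.17 and 0.04 in the same order, and CRR41 had -0.08, -0.19 and -0.13.

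**Figure D2:**
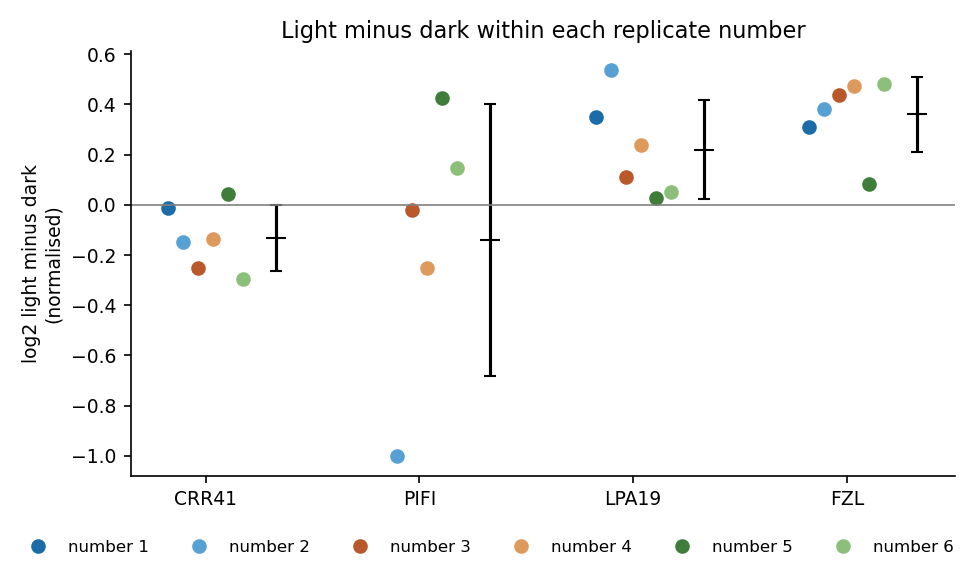
Light minus dark on the normalised log2 scale (y axis) within each replicate number for the 4 genes. Points are numbers, and black marks are the mean ± SD over numbers measured on both sides (n = 6, and 5 for PIFI). All 6 FZL and all 6 LPA19 points lie above 0, with number 5 lowest for both, and 5 of 6 CRR41 points lie below 0.

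The main fit across all 3409 probes tested left the replicate number out. In it, 1 of the 4 genes, FZL, was among the 197 probes called (limma, adjusted p under 0.05), which is 5.78% of all probes. It was again 1 of 4, FZL, with the replicate number as a block, where 13.1% of probes were called. These counts use the contrast with which the genes were chosen and are a description only. Without a block, FZL was not called on the values as deposited, where 179 of 3409 probes were. It was called on the same values with the replicate block, where 432 probes were. A further fit took consecutive numbers of the same group as a random block and did not pair light with dark. FZL was not called there, against 43 of all 3409 probes. It was not called when any 1 of 10 columns was left out, and it was called without dark column 1 or light column 5. Its difference stayed between log2 0.32 and 0.40 over those 12 settings that each left out 1 column.

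The replicate number gives a comparison that the choice of genes did not use. With light as a covariate, limma's F test found a level that differed between numbers at 461 probes, 13.5% of all. Among the 4 genes, 0 passed: the limma adjusted p was 0.683 for CRR41, 0.462 for PIFI, 0.331 for FZL and 0.138 for LPA19. The PIFI test kept its zero at the small offset, so its result depends on that zero. With an offset of 0.1 the limma adjusted p of PIFI was 0.15. The level of CRR41, light and dark averaged, moved over a range of log2 0.18 between numbers, that of FZL over 0.29 and that of LPA19 over 0.53. FZL was at its highest in numbers 1 and 2, at 0.16 and 0.13 above its mean, and LPA19 was at its lowest in number 4, at -0.33. PIFI covered a range of 0.59 over its 5 measured numbers.

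Profiles over the columns were set against each other in pairs. Pearson's r of the normalised log2 values was 0.29 between LPA19 and FZL, -0.31 between CRR41 and LPA19 and -0.58 between CRR41 and FZL (12 columns). PIFI, over the 11 columns where it was measured, had r of 0.002 with CRR41, -0.37 with LPA19 and -0.58 with FZL. These values describe columns that share light, replicate number and scaling, and are not independent points. LPA19 and its relative PSB27 had r of 0.11.

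Among probes naming 1 other gene, above the lower quartile and without zeros (502 for CRR41, LPA19 and FZL and 503 for PIFI), the 3 most like each gene were found by the same r. This r runs over light and dark columns together, so it favours genes with a like light minus dark difference. The differences given for them are therefore a description only. FZL was most like AT2G27290 (r 0.90), AT2G46300 (0.89) and AT5G52530 (0.89), over 12 columns. AT2G27290 had 36.0 ± 3.43 in light and 30.3 ± 2.41 in dark (SD, n = 6 each), a difference of log2 0.36. LPA19 was most like LpxA (r 0.82), named after the bacterial acyltransferase of lipid A synthesis, AT1G13990 (0.81) and AT4G14050 (0.77). CRR41 was most like AT3G09850 (r 0.78), AT4G17650 (0.77) and AT3G50270 (0.76). All 3 of these had a negative difference, between log2 -0.54 and -0.16. PIFI was most like AT5G02830 (r 0.85), AT2G36920 (0.81) and AT3G23940 (0.79), over 11 columns.

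The other genes of the same pathways were taken from 8 lists of NDH subunits, NDH assembly and expression factors, cyclic electron flow, photosystem II assembly, photosystem I and cytochrome complex assembly, thylakoid membrane formation, protein translocation and antenna kinases. Of 121 further loci on the lists, 8 were measured by a probe naming 1 gene, and 3 lists had none. In light against dark without a block, 0 of the 8 were called by limma (5.78% of all probes). An unadjusted p under 0.05 was found for 1 of the 8, against 683 of all 3409 probes. The median difference was log2 0.006 over the 8 and 0.02 over the 7 of them without zeros. Over all 3409 probes, those with zeros included, it was 0.002. With the replicate block 1 of the 8 was called, SECE1, against 13.1% of all probes. When consecutive numbers formed a random block with an estimated correlation, limma called 0 of the 8, against 43 of all 3409 probes. Each such block joined columns of the same group, so light and dark were not paired by number. In that fit 0 of the 8 had an unadjusted p under 0.05, a count not taken over all probes.

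SECE1, a subunit of the Sec channel through which proteins enter the thylakoid, was lower in light in 6 of 6 numbers. Its intensity in light spanned 0.515 to 0.779 with a median of 0.635, against 0.693 to 1.01 with a median of 0.806 in dark, and 4 light columns lay below all dark columns. Without a block the difference was log2 -0.29 ± 0.117 (SE, n = 6, limma adjusted p = 0.185). When the replicate number was a block, the SE was 0.0537 and the limma adjusted p = 0.0238. When consecutive numbers of the same group formed a random block, without pairing light and dark, the SE was 0.146. The limma adjusted p was then 0.424 with an estimated correlation.

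NdhS, the NDH subunit that docks ferredoxin, depended on the scaling. Its deposited intensity was 7.81 to 9.33 with a median of 9.02 in light, against 6.65 to 7.94 with a median of 7.74 in dark, and 5 of 6 light columns lay above all dark columns. On the deposited scale it was higher in light in 6 of 6 numbers, by log2 0.23 (limma, adjusted p = 0.0764, or 0.0266 when the replicate number was a block). Centring each column on its median gave 0.27 (limma, adjusted p = 0.0382). After quantile normalisation the difference was 0.02 (limma adjusted p = 0.944). The 10 probes with a mean intensity in the range of NdhS, NdhS among them, had a median difference of log2 0.21 as deposited and 0.01 after normalisation. For all probes it was -0.03 and 0.002. Quantile normalisation gives the columns a shared distribution, so a median near 0 at like brightness largely follows from the method.

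NdhN, a further NDH subunit, averaged 1.56 ± 0.635 in light and 1.34 ± 0.505 in dark (SD, n = 6 each), a difference of log2 0.22 that was not called (limma, adjusted p = 0.816, or 0.138 when the replicate number was a block). Its columns split by number: they held 0.842 and 0.686 in light and 0.688 and 0.729 in dark for numbers 1 and 2, against 1.70 to 2.11 in light and 1.48 to 1.79 in dark for numbers 3 to 6. PSB27, a photosystem II assembly and repair factor, had the same low numbers, with 0.599 and 0.576 in light and 0.816 and 0.443 in dark for 1 and 2, and 1.27 to 1.49 in light and 1.08 to 1.42 in dark for the others. OTP85, an RNA editing factor for an NDH subunit transcript, had 0.238 in light and 0.198 in dark in number 5, its lowest, and 0.438 in light and 0.491 in dark in number 1, its highest.

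These were the 3 of 8 listed genes that passed the test of the replicate number (limma F test, adjusted p = 0.00245 for NdhN, 0.0202 for OTP85 and 0.0207 for PSB27; 13.5% of all probes passed). The levels of NdhN and PSB27 moved over a range of about log2 1.5 each between numbers, and that of OTP85 over 1.04. SECE1, at 0.0580, missed the threshold but passed with the values as deposited (0.0306) and without the dimmest probes (0.0370). The labels do not say what a number marks.

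**Figure D3:**
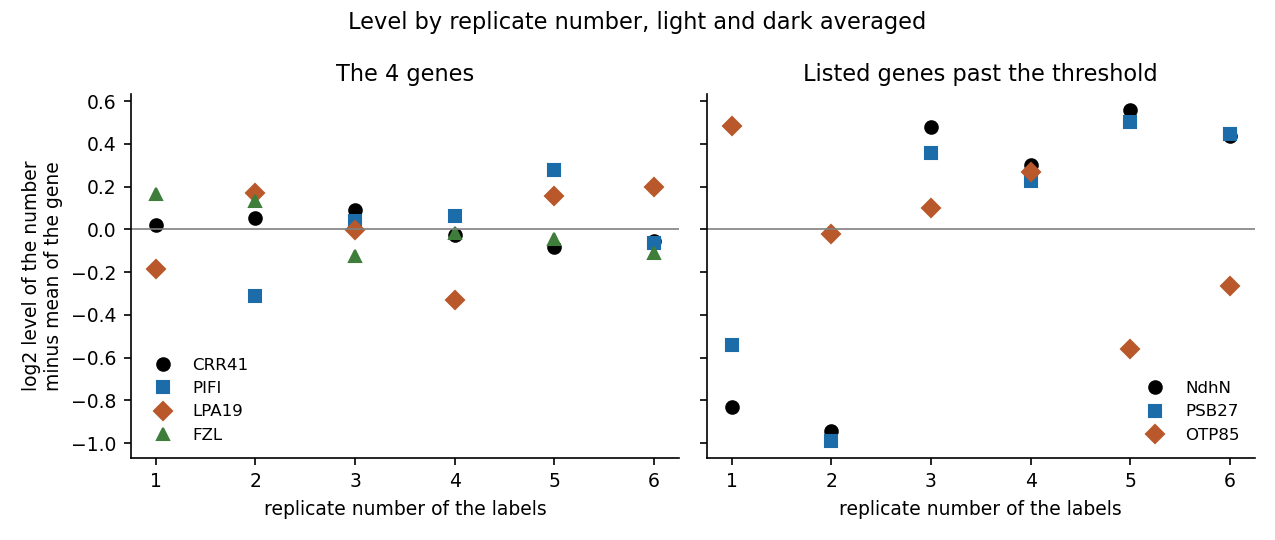
Level by replicate number (x axis), as the log2 value averaged over light and dark minus the mean of the gene (y axis), for the 4 genes on the left and for NdhN, PSB27 and OTP85 on the right. NdhN and PSB27 lie below 0 in numbers 1 and 2 and above it in 3 to 6, over a range of about log2 1.5, whereas CRR41 stays within 0.18.

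CRR21, SPPA and CCB3 were not called. CRR21, an editing factor for an NDH transcript, averaged 1.24 ± 0.0667 in light and 1.33 ± 0.0912 in dark (SD, n = 6 each). Its difference was log2 -0.05 (limma adjusted p = 0.724, or 0.557 when the replicate number was a block). SPPA, a thylakoid protease, had 0.713 ± 0.108 in light and 0.749 ± 0.109 in dark (SD, n = 6 each). Its difference was log2 -0.006 (limma adjusted p = 0.987, or 0.970 when the replicate number was a block). CCB3, a factor for haem attachment in the cytochrome complex, was listed at 0 in 4 of 6 light and 2 of 6 dark columns, with 0.0316 and 0.0403 in the other light columns and 0.00447 to 0.0982 in the other dark columns. No fold is given for it.

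**Figure D4:**
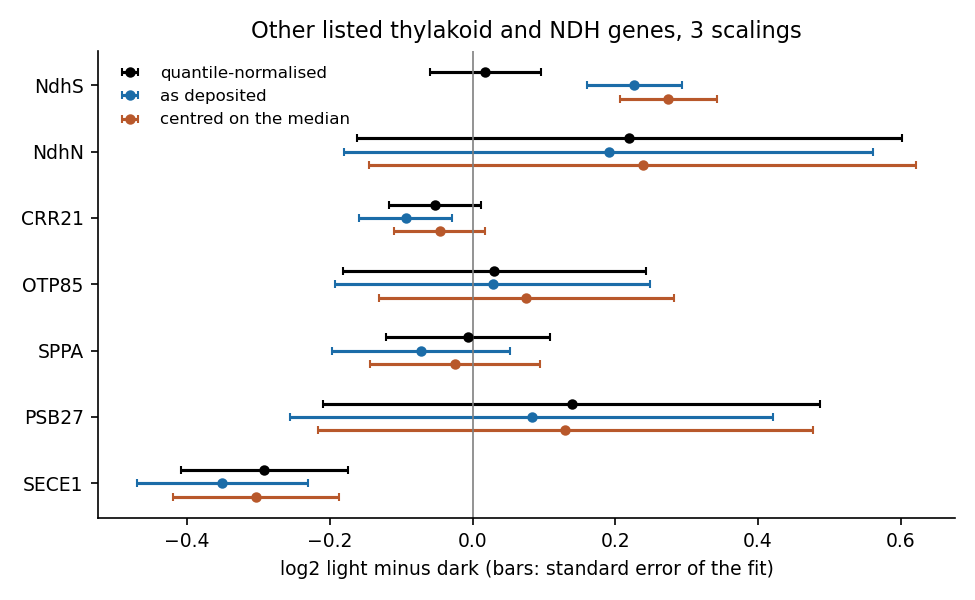
Light minus dark on the log2 scale (x axis) for 7 of the 8 listed genes, with quantile-normalised values, values as deposited and columns centred on the median. Points are fitted differences and bars are ± 1 standard error, from fits without a replicate block. NdhS moves from 0.02 to 0.23 and 0.27 with the scaling, and SECE1 lies below 0 under all 3.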

How the data were processed

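Intensity values on a linear scale were deposited by the authors for 3439 probes in 12 columns. How they were made could not be taken from the sources used here. Gene names came from an annotation of the platform that may be out of date: 692 probes named 1 gene, 870 several and 1877 none, and 690 of the 692 matched a RefSeq locus (TAIR10.1, used for names only). Columns were quantile-normalised with zeros kept at 0 and transformed as log2(value + 2.53e-05), the lowest positive value. The 30 probes at 0 throughout were left out, and limma 3.58.1 in R 4.3.3 was fitted to 3409 probes (two-sided, Benjamini-Hochberg over all, threshold 0.05). Alternatives were other scalings, an offset of 0.1, no dim probes, a replicate block and leaving out each column. A further alternative was a random block of consecutive numbers within a group. The fits with and without the replicate block and the F test of the replicate number were also run on simulated data. Those data held no exact zeros and no correlation of consecutive numbers, and the random block was not run on them. Tables used Python 3.11.15.

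The genes and lists were chosen with earlier results of these data known. Named are the 4 genes, every listed gene measured, and the 3 genes most like each. The rule for likeness used 12 columns; for PIFI its zero was left out after the values were seen.

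Deviations from the group mean of same-numbered columns of the opposite groups correlated by 0.66 to 0.786 over 2554 probes, and 12 of 12 columns were best matched by their own number, so the numbers were taken to pair columns. Consecutive numbers of a group also correlated, by 0.30 on average, against -0.318 for others, so n = 6 counts columns and may overstate the samples. Taking deviations from the group mean pulls correlations within a group below 0 on average, so the negative sign of -0.318 was not read as a result.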

Additional observations from a re-analysis of the deposited data

Results flagged for a closer look

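Of 24 groups of 6 deposited intensities, from the 4 genes and the 8 listed genes in light and in dark, 5 had a single column well apart from the rest. Chance would give about 1.2 such groups, but the groups are not independent, because same-numbered columns are correlated. CRR41 was at 0.858 in light column 6, against 0.947 to 0.996 in the other light columns. PIFI was listed at 0 in dark column 1, against 0.150 to 0.202 in the other dark columns. The remaining 3 were in columns numbered 5. NdhS was at 7.81 in light column 5, against 8.81 to 9.33, and at 6.65 in dark column 5, against 7.49 to 7.94. For CRR21, dark column 5 held 1.16, while the other dark columns held 1.32 to 1.42. Number 5 was not low throughout: it held the highest light value of PIFI, 0.232, and the highest dark values of NdhN, 1.79, and PSB27, 1.42. The flags depend on the deposited scale. After normalisation, in log2, NdhS light column 5 was at 3.03, within the other light columns (2.89 to 3.17). NdhS dark column 5 was at 2.85, close to 2.91 in dark column 1. CRR21 dark column 5 was at 0.272, close to 0.305 in dark column 2. CRR41 light column 6 was at -0.186, against -0.0765 in light column 4.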

How the results depend on the processing

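The count of 197 probes called became 448 with the replicate block, 562 with the block and an offset of 0.1, 432 with the block and values as deposited, and 43 when consecutive numbers formed a random block; leaving out 1 column gave 103 to 168. The 2 fits that join the block with another setting were chosen after the data were seen. Of the 4 genes, 1 was called, 0 as deposited, 0 with the random block and 0 to 1 with 1 column left out (0 in 10 of 12). Of the listed genes, 0 were called, 1 with columns centred on the median (NdhS), 1 with the replicate block (SECE1), 1 with the block and an offset of 0.1 (SECE1), 2 with the block as deposited (NdhS and SECE1), and 0 with any 1 column left out. On the values as deposited the block also called FZL, 1 of the 4 genes; it changed no other call among these 12 genes on either scale. The random block called 0 listed genes. PIFI, at log2 1.87 with its zero, turned to -0.25 without dark column 1 and to -0.14 with the zero left out, and was 0.10 with an offset of 0.1. With 1 column left out, FZL had 0.32 to 0.40, LPA19 0.15 to 0.28, CRR41 -0.17 to -0.10 and PIFI -0.25 to 2.32. Over the 3 other scalings or offsets and the ratio of mean intensities, FZL had log2 0.34 to 0.41, LPA19 0.18 to 0.25 and CRR41 -0.19 to -0.12. The 461 probes with a replicate number effect became 445 as deposited, 660 with an offset of 0.1 and 623 without the dimmest probes. The number of arrays limits the precision.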
